A study of Homo sapiens with 6 samples.

Results

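Glycolysis turns glucose into pyruvate and, through lactate dehydrogenase, into lactate. The genes described here are 10 that carry glucose into the cell, set the pace of the pathway or exist as isozymes: the glucose transporter SLC2A1, the hexokinases HK1 and HK2, the phosphofructokinases PFKL and PFKP, the regulatory enzymes PFKFB3 and PFKFB4, the enolases ENO1 and ENO2, and the lactate dehydrogenase LDHA. They were chosen by symbol, with earlier results of these data known. All 10 were found among the 24462 gene symbols measured and had enough reads to be tested, as had 13605 genes in all. The cells were LS 174T, an established human colorectal adenocarcinoma line with goblet-like features, at passages 21 to 23. Control cells are titled NC, with no propionate dose or treatment time given (n = 3 libraries). The other cells were given propionate, a short-chain fatty acid made by gut bacteria, at 4 mM for 4 h (n = 3 libraries). The labels name no vehicle for the control. Nothing in them ties the 3 libraries of a group to separate cultures: every p-value therefore rests on a spread among libraries that may be no more than technical. All libraries came from 1 cell line and are bulk samples, in which fewer cells of a type and less RNA per cell cannot be told apart.

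Isozymes are products of different genes that run the same reaction with different control. Hexokinases trap glucose in the cell by phosphorylating it, and phosphofructokinase makes the committing step. PFKFB enzymes make and remove the small sugar bisphosphate that activates phosphofructokinase, so they act as flux regulators. Hypoxia-inducible factors, of which HIF-2α is in the series title, are known to raise many glycolytic genes. The comparison addresses which of these genes moved with propionate.

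Library totals ran from 11603288 to 12746170 reads, and 3 reads, the level that a count of 0 still allows, corresponded to between 0.235 and 0.259 CPM (counts per 1000000 counts of the library). That limit covers counting error only. Levels of single genes are in CPM with the library totals scaled by TMM factors, between 0.987 and 1.02. The 10 genes together took between 0.410% and 0.462% of the reads of a library. All 12 listed markers of this line averaged above 1 CPM, with sums of 4733 to 5661 CPM in control and 5500.0 to 6136 CPM with propionate. Among these 12, MUC2, CEACAM5 and KRT18 were called higher and CDX1 and CDX2 lower, against 17.2% and 17.0% of all tested genes. Of 20 markers of other cell types 7 averaged above 1 CPM, and CD3E, VWF, CDH5, DCN and INS had no read. Their sums were 41.5 to 46.0 CPM in control and 37.1 to 41.9 CPM with propionate. Within that list COL1A1 was called higher and LYZ lower, and the part of these markers in the results was not tested.

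Of the 10 genes, 4 were higher with propionate, PFKFB4, HK1, ENO2 and SLC2A1, against 17.2% of all tested genes (edgeR quasi-likelihood test with a Benjamini-Hochberg adjustment over all of them, called where the adjusted p was under 0.05). None was lower, against 17.0% of all tested genes. DESeq2 and limma-voom also called none lower, and none was lower at an unadjusted p under 0.05. The median log2 fold change was 0.20 over the 10 genes and -0.01 over all tested genes. Because the 10 were chosen with earlier results of these data known, these counts are a description only. In each pair of isozymes where one gene rose, HK1 and HK2, PFKFB4 and PFKFB3, ENO2 and ENO1, the other was not called. The propionate libraries lay all above the controls in CPM for the same 4 genes, where 22.4% of all tested genes did so, and for none of the 10 did they lie all below, where 22.7% did so.

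**Figure D1:**
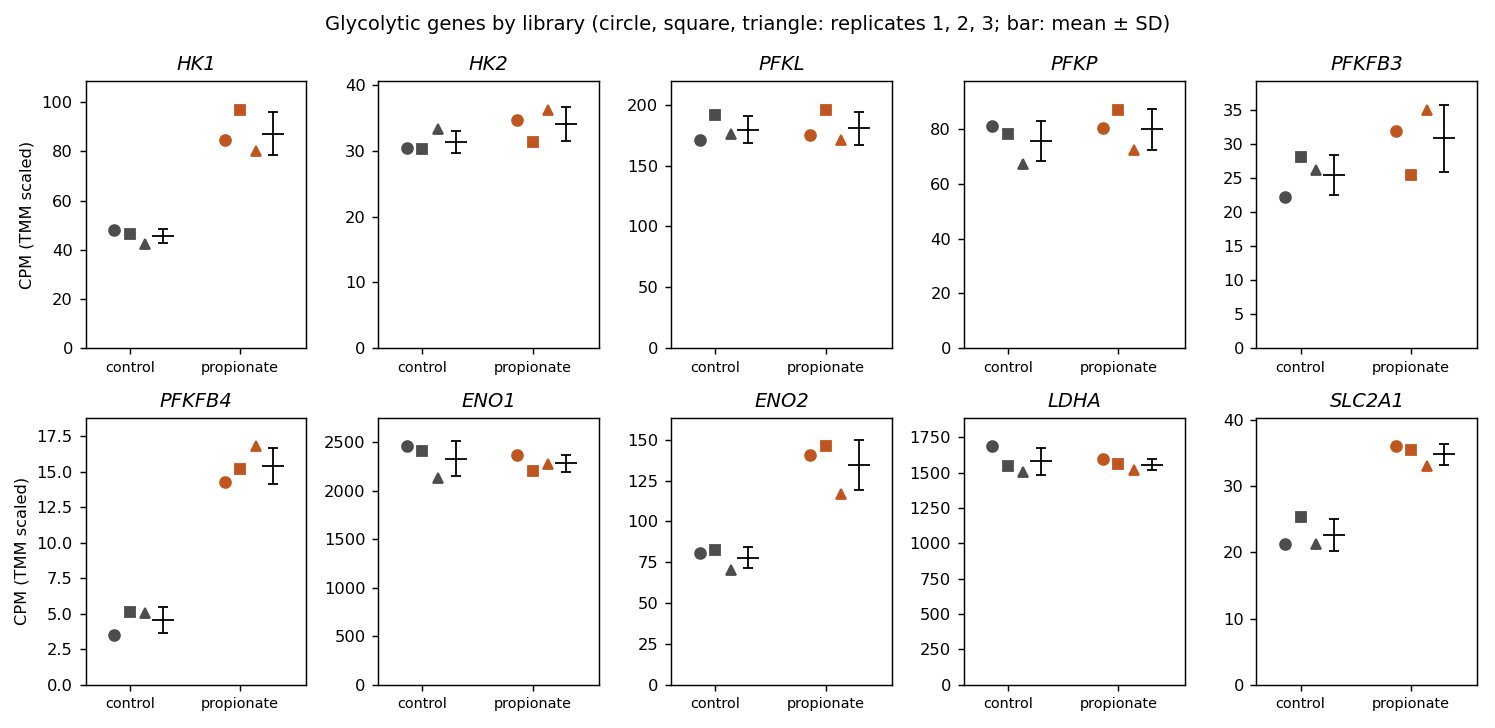
Level of each of the 10 glycolytic genes in CPM (vertical axes, each starting at 0) in the 3 control and 3 propionate libraries, with the mean and SD of each group. The groups are apart for HK1, PFKFB4, ENO2 and SLC2A1 and overlap for the other 6 genes.

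At the step of glucose entry, the transporter gene rose. SLC2A1, which encodes the widespread transporter GLUT1, was at 21.2, 25.4 and 21.3 CPM in the controls and at 36.0, 35.4 and 33.0 CPM with propionate. Every propionate library was above every control, and the means were 22.6 ± 2.38 and 34.8 ± 1.59 CPM (SD, n = 3). The fold change was 1.54 (log2 0.62, SE 0.115, edgeR adjusted p = 0.000359). Its antisense partner SLC2A1-AS1 had 3 reads in control and 18 with propionate, against 796 and 1295 for SLC2A1. Whether the counting used strand is not given in the sources used here, so the reads of such a pair cannot be told apart.

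Of the hexokinases, HK1 rose. HK1, an isozyme that most tissues express and that can bind mitochondria, was at 47.9, 46.4 and 42.4 CPM in control and at 84.5, 97.0 and 80.0 CPM with propionate. The lowest propionate library was well above the highest control, with means of 45.6 ± 2.85 and 87.2 ± 8.81 CPM (SD, n = 3). The log2 fold change was 0.94 (SE 0.0987, edgeR adjusted p = 8.21e-07), and the differences within same-number pairs of libraries were 0.82, 1.06 and 0.92. HK2, the isozyme typical of muscle and of many tumours, was at 30.5, 30.3 and 33.3 CPM in control and at 34.8, 31.3 and 36.3 CPM with propionate. These values overlapped, and the log2 fold change of 0.12 had a 95% interval from -0.10 to 0.35 (edgeR adjusted p = 0.415).

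The other hexokinase genes were not called or too rare to test. HKDC1, a hexokinase domain gene of epithelia, was at 24.9 ± 4.51 and 25.4 ± 0.803 CPM (SD, n = 3, log2 fold change 0.03). HK3 had 7 reads in control and 6 with propionate, too few to be tested. The summed level of the 4 hexokinase genes with reads went from 102 ± 5.70 to 147 ± 6.58 CPM, and the groups did not overlap (exact permutation test, 2-sided, p = 0.10, the smallest that 3 against 3 libraries allow).

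No phosphofructokinase gene was called. PFKL, the liver-type subunit, was at 171, 192 and 176 CPM in control and at 175, 196 and 171 CPM with propionate, so the groups overlapped fully. Its log2 fold change was 0.01 (95% interval -0.17 to 0.18, edgeR adjusted p = 0.964), and after removal of the GC trend described further on it was called lower, at -0.30. PFKP, the platelet-type subunit, was at 81.1, 78.4 and 67.3 CPM in control and at 80.5, 87.2 and 72.4 CPM with propionate. Its log2 fold change of 0.08 had an interval from -0.12 to 0.29 (edgeR adjusted p = 0.553). PFKM, the muscle-type subunit and not one of the 10, was at 39.9 ± 1.04 and 42.7 ± 6.29 CPM (SD, n = 3, log2 fold change 0.10).

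The largest change among the 10 was that of PFKFB4. Its reads were 40, 60 and 61 in the controls and 185, 189 and 199 with propionate, or 3.49, 5.13 and 5.08 CPM against 14.3, 15.2 and 16.8 CPM. The 3 propionate libraries were far above the controls, and the fold change was 3.37 (log2 1.75, SE 0.186, edgeR adjusted p = 8.63e-07). Its 161 control reads were the fewest of the 10 genes. PFKFB3, the isozyme known to favour its kinase activity, was at 22.3, 28.1 and 26.2 CPM in control and at 32.0, 25.5 and 35.1 CPM with propionate. Propionate library 2 lay among the controls, and PFKFB3 was not called (log2 fold change 0.27, 95% interval -0.00 to 0.55, edgeR adjusted p = 0.118). Without that library it was called, at 0.39 (adjusted p = 0.0316). PFKFB2, which is not one of the 10, was at 45.9 ± 6.62 and 53.5 ± 6.60 CPM (SD, n = 3, log2 fold change 0.22, edgeR adjusted p = 0.158, and 0.0421 with the replicate block). PFKFB1, with 19 reads in control and 30 with propionate, was not tested.

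Enolase, the step that makes phosphoenolpyruvate, showed the same split. ENO2, the isozyme known from neurons and neuroendocrine cells, was at 81.0, 82.4 and 70.3 CPM in control and at 141, 146 and 117 CPM with propionate. The groups did not overlap, and the fold change was 1.73 (log2 0.79, SE 0.0984, edgeR adjusted p = 5.64e-06). ENO1, the isozyme of most tissues, had 81824 control reads and 84895 propionate reads. Its levels of 2457, 2407 and 2126 CPM in control and 2373, 2198 and 2273 CPM with propionate overlapped, and the log2 fold change of -0.03 had an interval from -0.19 to 0.13 (edgeR adjusted p = 0.795). ENO3, the muscle isozyme, was at 5.20 ± 1.07 and 4.92 ± 1.56 CPM (SD, n = 3). The antisense gene ENO1-AS1 had 54 and 36 reads. Processed copies of ENO1 and of LDHA elsewhere in the genome are not analysed here, and how reads that match several places were counted is not given in the sources used here.

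The last step was not called either. LDHA, the lactate dehydrogenase subunit that hypoxia-inducible factors are known to raise, was at 1685, 1546 and 1505 CPM in control and at 1594, 1559 and 1516 CPM with propionate. The groups overlapped, and the log2 fold change of -0.02 had a 95% interval from -0.18 to 0.13 (edgeR adjusted p = 0.861). LDHB, the subunit typical of heart, was at 797 ± 40.1 and 755 ± 48.5 CPM (SD, n = 3, log2 fold change -0.08). LDHC (2 reads in control, 8 with propionate) and LDHAL6B (6 and 9) were too rare to be tested, and LDHAL6A was at 2.60 ± 1.26 and 2.98 ± 1.03 CPM.

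**Figure D2:**
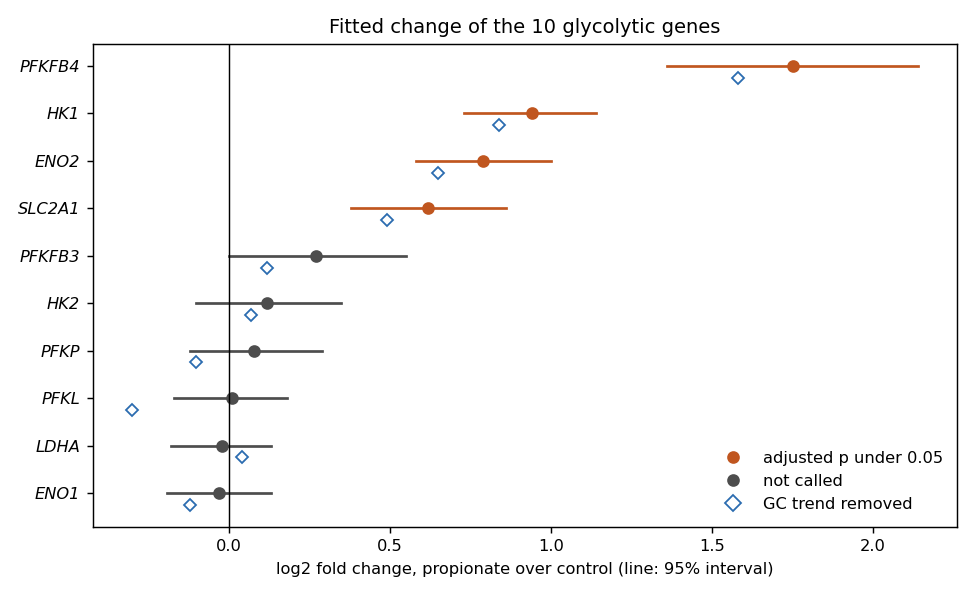
Fitted log2 fold change of propionate over control for the 10 genes (horizontal axis), with 95% intervals. Filled points are the fit used throughout, orange where called, and open diamonds are the values after removal of each library's GC trend. PFKFB4 at 1.75, HK1 at 0.94, ENO2 at 0.79 and SLC2A1 at 0.62 stand right of 0, and PFKL moves to -0.30 in the version with the trend removed.

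Changes of the balance between isozymes can be read within a library, with no scaling and no transcript length. The log2 ratio of HK2 to HK1 reads was -0.65, -0.62 and -0.35 in control and -1.28, -1.63 and -1.14 with propionate, a shift of -0.81. The ratio of PFKFB3 to PFKFB4 went from 2.66, 2.45 and 2.36 to 1.16, 0.75 and 1.06, a shift of -1.50. ENO2 to ENO1 went from -4.92, -4.87 and -4.92 to -4.07, -3.91 and -4.28, a shift of 0.81. In these 3 pairs every propionate library lay on the same side of every control. PFKP to PFKL shifted by 0.08 and LDHA to LDHB by 0.06, with overlapping groups. The exact permutation test gave p = 0.10, the smallest it can give here, for each of the 3 shifted pairs (0.167 adjusted over the 5 ratios) and 0.50 for the other two. The shifts were also tested as unequal change within a pair in edgeR's model of all genes (diffSpliceDGE). The diffSpliceDGE adjusted p-values over the 5 pairs were 3.91e-06 for the hexokinases, 5.42e-08 for the PFKFB pair, 9.33e-10 for the enolases and 0.629 for both other pairs. These pairs hold genes chosen with earlier results of these data known, which the p-values do not allow for.

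**Figure D3:**
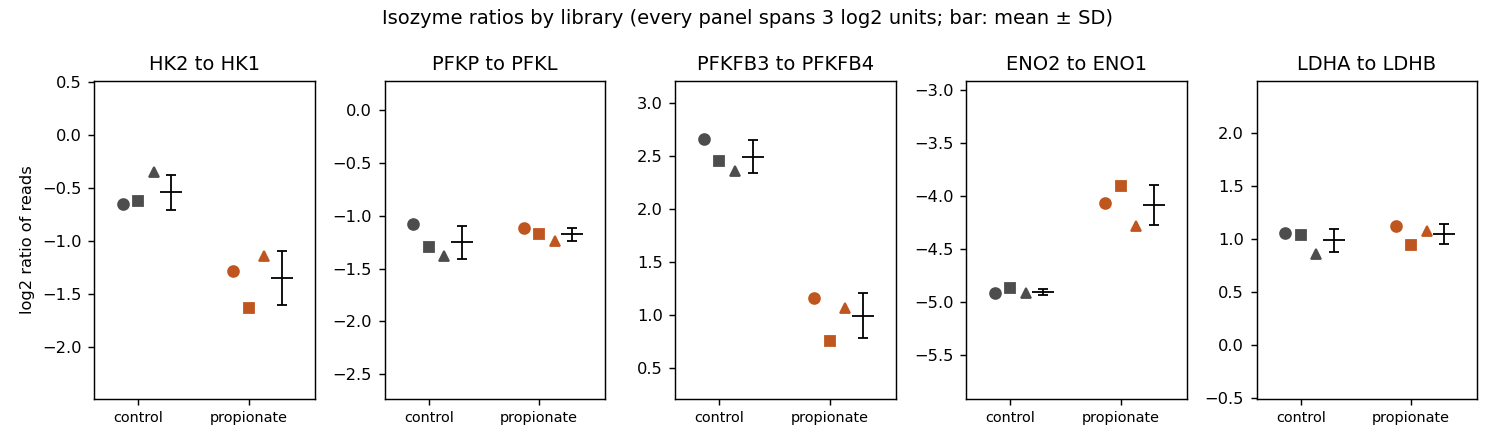
Log2 ratio of the reads of 2 isozymes in each library (vertical axes, every panel spanning the same range), with the mean and SD of each group of 3 libraries. The groups are apart for HK2 to HK1, PFKFB3 to PFKFB4 and ENO2 to ENO1 and overlap for PFKP to PFKL and LDHA to LDHB.

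Levels in CPM were also summed over each family, with no correction for transcript length. The enolase total was 2413 ± 185 and 2421 ± 86.5 CPM (SD, n = 3), with overlapping groups. The phosphofructokinase total was 295 ± 13.2 and 303 ± 15.8 CPM, and that of the lactate dehydrogenases 2378 ± 105 and 2315 ± 69.5 CPM. The PFKFB total went from 76.6 ± 6.01 to 101 ± 3.96 CPM and the sum of SLC2A1, SLC2A3, SLC2A4 and SLC2A14 from 26.6 ± 3.84 to 56.9 ± 0.961 CPM, both with groups that did not overlap (exact permutation p = 0.10, or 0.200 adjusted over the 6 families, as for the hexokinases). Over all 12 listed SLC2A genes with reads, a sum added after seeing the data, the levels were 139.9 ± 12.1 and 197 ± 5.23 CPM, a smaller ratio of 1.41.

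Other transporter genes moved beside SLC2A1. SLC2A4, which encodes the insulin-responsive transporter GLUT4 of muscle and fat, was at 2.80, 5.64 and 3.41 CPM in control and at 19.9, 22.2 and 23.4 CPM with propionate. Every propionate library was several times above every control, and the fold change was 5.51 (log2 2.46, SE 0.203, edgeR adjusted p = 4.57e-08). SLC2A2 had no read, SLC2A3 had 0 in control and 3 with propionate, and SLC2A14 had 1 and 7. Of 18 genes listed as hexose transporters besides SLC2A1, 10 were tested, of which 5 were higher, SLC2A4 among them, and none lower. Over all tested genes 17.2% were higher and 17.0% lower. For this list limma-voom gave the same counts, DESeq2 3 and 0, and none was lower at an unadjusted p under 0.05. SLC2A6, a lysosomal transporter, rose 2.38-fold (log2 1.25, SE 0.223, edgeR adjusted p = 0.000234). SLC2A8 rose 1.26-fold, a call lost without control library 3 or propionate library 2 (adjusted p = 0.0821 and 0.0550) and after GC removal (adjusted p = 0.681). SLC5A2 and SLC2A12, the remaining called genes, lost the call without any 1 of 5 libraries (all but propionate library 1 and all but control library 3, adjusted p up to 0.157 and 0.126) and by DESeq2 (adjusted p = 0.0732 and 0.0835). SLC5A2 also lost it after GC removal (adjusted p = 0.113) and SLC2A12 with no filter on low counts (adjusted p = 0.0545).

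The further steps of glycolysis had few calls. Of 29 other listed genes 21 were tested, 4 were higher, near the 17.2% over all tested genes, and none was lower, against 17.0% (DESeq2 gave the same counts, limma-voom 4 and 1, and 1 was lower at an unadjusted p under 0.05). With the replicate number as a block, 7 were higher and 1 lower, where 21.9% and 22.6% of all tested genes were. PKLR, the pyruvate kinase gene of liver and red cells, rose from 6.20, 7.35 and 8.24 CPM to 18.6, 13.6 and 15.6 CPM (log2 fold change 1.13, SE 0.174, edgeR adjusted p = 5.36e-05). ALDOC, the aldolase isozyme known from brain, rose from 23.9, 21.3 and 18.7 CPM to 45.2, 35.5 and 35.0 CPM (log2 fold change 0.86, SE 0.129, edgeR adjusted p = 4.31e-05). LDHD, a mitochondrial enzyme for D-lactate, rose 1.79-fold. PKM, the pyruvate kinase gene of most tissues, was 1.17-fold higher (adjusted p = 0.0455), a call lost without control library 3, propionate library 1 or propionate library 2 (adjusted p = 0.229, 0.149 and 0.134) and after GC removal (adjusted p = 0.252). GPI, TPI1 and PGK1, which run single steps, were not called, with log2 fold changes of 0.03, 0.01 and -0.06. GAPDH was at 3588 ± 504 and 3987 ± 469.7 CPM (SD, n = 3, edgeR adjusted p = 0.252, and 0.00145 with the block). PGAM1 and its near-identical copy PGAM4 had log2 fold changes of -0.00 and -0.05, and how their reads were divided is uncertain.

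Around pyruvate, 2 of 5 tested genes of lactate and pyruvate transport were higher and none lower, against 17.2% and 17.0% of all tested genes. The counts were the same by DESeq2, limma-voom and an unadjusted p under 0.05. SLC16A3, which encodes a lactate exporter of glycolytic cells, rose from 52.6, 43.8 and 40.2 CPM to 129.7, 143 and 119.5 CPM (log2 fold change 1.52, SE 0.105, edgeR adjusted p = 5.98e-09). SLC16A1, which moves lactate and short-chain fatty acids, was 1.18-fold higher, and its call was lost without control library 2 or 3 or propionate library 1 or 2 (adjusted p between 0.0851 and 0.139). Of the pyruvate dehydrogenase list 5 of 12 were higher and none lower, again against 17.2% and 17.0% of all tested genes. DESeq2 gave 4 and 0, limma-voom 5 and 0, and none was lower at an unadjusted p under 0.05. The 5 higher genes were kinases that switch the complex off and phosphatases that switch it on. PDK4 rose from 9, 10 and 11 reads to 38, 89 and 42 (log2 fold change 2.40, SE 0.396, edgeR adjusted p = 0.000109), and propionate library 2 was the highest. The phosphatase genes PDP2 and PDP1 rose 1.32-fold and 1.40-fold, and PDP1 lost its call without propionate library 2 (adjusted p = 0.0539). PDK3 was 1.27-fold higher, lost without control library 1 or 3 or propionate library 2 (adjusted p up to 0.108). PDK2 was 1.37-fold higher, lost without control library 1 or 3 or propionate library 1 or 3 (adjusted p up to 0.131), after GC removal (adjusted p = 0.289) and by DESeq2 (adjusted p = 0.0619). The subunit genes of the complex, PDHA1, PDHB, DLAT, DLD and PDHX, had log2 fold changes between -0.10 and 0.04.

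Branches off the pathway had few calls. In gluconeogenesis 1 of 6 tested genes was called, a share near the 17.2% over all tested genes. It was PCK1, which rose 1.52-fold (edgeR adjusted p = 0.00110). In glycogen metabolism the synthase gene GYS1 was 1.34-fold higher, lost without propionate library 2 (adjusted p = 0.0543) and after GC removal (adjusted p = 0.13). The branching enzyme gene GBE1 fell by 0.74 on the log2 scale (edgeR adjusted p = 0.00224). None of 4 tested hexosamine genes was called by edgeR, DESeq2 or limma-voom, where edgeR called 17.2% of all tested genes higher and 17.0% lower. At an unadjusted p under 0.05, 1 hexosamine gene was higher and 1 lower.

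Transcription regulators tied to glycolytic genes were called in both directions, 5 of 17 higher and 3 lower, against 17.2% and 17.0% of all tested genes. After GC removal there were 4 higher and 4 lower, and with the block as well 5 and 6. Over all tested genes 14.7% were higher and 19.6% lower after GC removal, and with the block as well 2555 and 3460 of 13605. MLXIPL, which encodes the glucose-sensing factor ChREBP, rose from 91.9, 90.0 and 77.2 CPM to 143, 182 and 148 CPM (log2 fold change 0.87, SE 0.101, edgeR adjusted p = 2.44e-06). PPARGC1A, a coactivator of mitochondrial genes, rose 2.89-fold. EPAS1, which encodes HIF-2α, was rare, with 5, 4 and 0 control reads against 22, 21 and 22 (log2 fold change 2.72, SE 0.590, edgeR adjusted p = 0.00140). HIF1A was at 47.0 ± 4.12 and 46.1 ± 1.98 CPM (SD, n = 3). TXNIP and FOXK1 were called at 1.35-fold and 1.26-fold although their groups overlapped. TXNIP lost the call without control library 2 or propionate library 3 (adjusted p up to 0.142) and by DESeq2 (adjusted p = 0.205). FOXK1 lost it without any 1 library but propionate library 3 (adjusted p up to 0.199) and after GC removal (adjusted p = 0.338). NFE2L2, the antioxidant factor NRF2, and SP1, a factor of GC-rich promoters, fell by 0.73 and 0.72 on the log2 scale.

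Over these 9 lists together, 93 genes were tested, 24 were higher (25.8%, against 17.2% of all tested genes) and 4 lower (4.30%, against 17.0%), with a median log2 fold change of 0.10. As the lists were chosen with earlier results of these data known, these counts too are a description only. Without propionate library 2 there were 15 higher and 4 lower, without propionate library 3 there were 22 and 7, and with the replicate block 33 and 8. After GC removal there were 19 and 7, and with the block as well 25 and 14. Over all tested genes 21.9% were higher and 22.6% lower with the block, and 14.7% and 19.6% after GC removal. With both, 2555 of 13605 were higher and 3460 lower. Without propionate library 2, 1984 genes in all were higher and 1868 lower, and without propionate library 3, 2086 and 1997. Of the 28 called genes 15 kept their call under every alternative that gave a value (15 or 16 for each gene) and 13 lost it under at least 1.

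**Figure D4:**
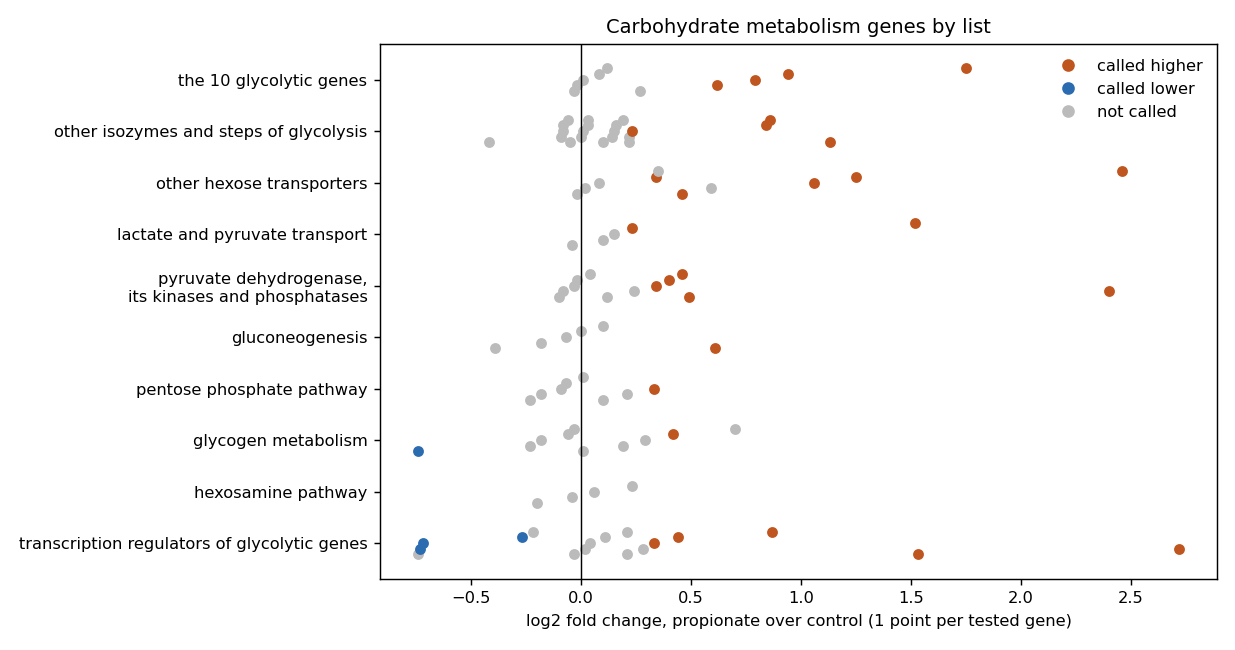
Log2 fold change of propionate over control for each tested gene (points, horizontal axis) in the 10 glycolytic genes and 9 further lists, coloured by call. Points in 8 of these 9 lists include called genes, and the lower calls include GBE1, NFE2L2 and SP1.

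Transcript GC content moved with the calls over all genes, and it is given here beside the 10. Among tested genes split into 5 equal bins, 32.8% of the GC-richest bin were called higher and 9.21% lower, against 8.03% and 23.1% of the GC-poorest. Of the 10 genes, 7 fell in the fourth bin (GC from 51.7% to 58.1%), with 21.3% higher and 14.4% lower. After removal of each library's GC trend, PFKFB4, HK1, ENO2 and SLC2A1 were still called, at log2 fold changes of 1.58, 0.84, 0.65 and 0.49 (edgeR adjusted p between 1.71e-06 and 0.00221), where 14.7% of all tested genes were higher. PFKL, whose transcript has a GC content of 64.1%, was then called lower, at -0.30 (adjusted p = 0.00658), where 19.6% of all tested genes were. With the replicate block as well, ENO1 was also called lower, at -0.12 (adjusted p = 0.0407), where 25.4% were. What the GC trend stems from was not tested.

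Closest to HK1, the called gene with the smallest p among the 10, were ZNF703, CCDC88A and PSMB9. Their profiles over the 6 libraries, each centred on its own mean log2 CPM, differed from that of HK1 by a root mean square of 0.0413, 0.0476 and 0.05, the smallest among 9283 genes averaging at least 10 CPM. ZNF703 was at 166, 167 and 142 CPM in control and at 291, 327 and 288 CPM with propionate. CCDC88A and PSMB9 had log2 fold changes of 0.98 and 0.99.

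Since hypoxia-inducible factors bind the core letters ACGTG, the promoters of the 10 genes were searched for them. The 250 bases upstream of each RefSeq start were read on both strands (GRCh38.p14, a build other than the hg19 and GRCh37 named for the counts, so these windows were matched by symbol). The E-box bound by MYC and ChREBP, CACGTG, is a palindrome that contains this core on both strands and was counted once. All 10 symbols had at least 1 window, 22 windows in all. The first core was found in 6 of the 22, against 18.5% of all 35116 windows, and in at least 1 window of 5 of the 10 genes, against 21.7% of all genes. These were HK2, PFKP, PFKFB3, ENO2 and LDHA, of which ENO2 alone was called. HK1 with 7 windows, and PFKFB4 and SLC2A1 with 1 each, had no match to this form. The other form of the core, GCGTG, was in 9 of the 22 windows against 32.2% of all, and in at least 1 window of 8 of the 10 genes against 36.2% of all genes, HK1 and PFKFB4 among the 8. Genes with several windows have more chances of a match. CACGTG was in 3 of the 22 against 6.34%. A match is a description of letters and not a bound site, and absence from these windows says nothing about the factor.

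The windows of ENO2, which rose, and of PFKFB4, which rose most and has 1 GCGTG but no ACGTG, are printed here. HK2 and LDHA, which were not called and hold several matches, have 2 windows each, of which 1 is printed. The windows are printed 5′ to 3′ on the gene's strand, with each ACGTG of either strand in capitals. They lie at chr12:6914330-6914579 (+ strand) for ENO2, chr3:48556804-48557053 (- strand) for PFKFB4, chr2:74833877-74834126 (+ strand) for HK2 and chr11:18394313-18394562 (+ strand) for LDHA.
ENO2: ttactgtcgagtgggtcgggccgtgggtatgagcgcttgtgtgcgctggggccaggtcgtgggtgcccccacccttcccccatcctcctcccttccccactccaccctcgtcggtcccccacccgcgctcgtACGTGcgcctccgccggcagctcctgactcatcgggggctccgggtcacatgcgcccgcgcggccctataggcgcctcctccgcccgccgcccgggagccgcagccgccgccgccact
PFKFB4: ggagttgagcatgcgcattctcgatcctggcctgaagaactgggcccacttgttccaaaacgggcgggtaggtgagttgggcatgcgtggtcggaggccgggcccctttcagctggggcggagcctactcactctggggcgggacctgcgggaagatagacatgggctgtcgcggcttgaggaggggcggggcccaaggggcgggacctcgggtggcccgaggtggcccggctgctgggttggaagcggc
HK2: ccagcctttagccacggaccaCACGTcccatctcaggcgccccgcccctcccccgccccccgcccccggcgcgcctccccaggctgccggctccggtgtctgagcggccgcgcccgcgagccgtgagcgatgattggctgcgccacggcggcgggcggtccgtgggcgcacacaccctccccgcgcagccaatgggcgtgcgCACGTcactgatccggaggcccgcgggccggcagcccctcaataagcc
LDHA: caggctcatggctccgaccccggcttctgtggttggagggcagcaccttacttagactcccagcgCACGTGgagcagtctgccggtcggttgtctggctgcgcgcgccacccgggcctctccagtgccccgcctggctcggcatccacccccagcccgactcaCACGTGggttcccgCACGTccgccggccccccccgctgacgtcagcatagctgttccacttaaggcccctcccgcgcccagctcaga

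The ENO2 window holds 1 ACGTG, whose first printed base lies 118 bases before the start, and the printed HK2 window 2, at 229 and 48 bases. The HK2 window that is not printed holds 2, at 194 and 149 bases, both within CACGTG. The printed LDHA window holds 3, at 185, 87 and 73 bases, 2 of them within CACGTG, and the other LDHA window none. Beside these stand log2 fold changes of 0.79 for ENO2, 0.12 for HK2, -0.02 for LDHA and 1.75 for PFKFB4.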

How the data were processed

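Expression was measured by RNA sequencing in 6 libraries of LS 174T cells, prepared with a Lexogen QuantSeq kit (input 500 ng total RNA) per the labels' protocols. The kit's catalogue number may belong to another product, so it is unsure whether reads mark transcript ends. Levels were not compared between genes for this reason. The family totals do add CPM of several genes, so longer transcripts may weigh more in them. Each library has 1 deposited table of raw counts by gene symbol. The submitters' processing notes name Bowtie2, edgeR, hg19 and GRCh37, with the counter and strand setting not given in the sources used here. Counts of 286 symbols on several lines were summed, and none of the 10 genes was among them.

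Counts were tested with edgeR 4.0.16 in R 4.3.3 (filterByExpr, TMM factors, quasi-likelihood F test, both directions, Benjamini-Hochberg adjustment over 13605 genes, call at adjusted p under 0.05). Ratios used a pseudocount of 0.5. The GC trend was a spline (4 df) of GC in the longest GENCODE 29 transcript, known for 93.4% of tested genes and for all 10, and entered as an offset. Alternatives were other scaling factors and filters, DESeq2 1.42.0, limma-voom (limma 3.58.1), the replicate block and leaving out each library. The code was tested on simulated data.

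Replicate numbers come from the marks in the titles. Libraries with the same number deviated together from the group means (r = 0.240, 0.396 and 0.442 across 9284 genes, which are not independent). All exceed 0.1, and the numbers count as pairs. The fit used throughout, the permutation test and diffSpliceDGE nevertheless left the pairs out, and the replicate block was run as an alternative. It called 21.9% of all tested genes higher and 22.6% lower, against 17.2% and 17.0% in the fit used throughout. No 2 replicates were alike within sampling noise (chi-square per df 6.01 to 8.85). The genes named were the 10, up to 3 called genes per list and direction with the smallest p, family members with at least 10 reads, the 3 profiles nearest to the gene with the smallest p, and, chosen after their values were seen, the remaining called genes of short lists and some genes that were not called. Some genes that this rule selects are not reported here. The 10 genes and the lists were chosen with earlier results of these data known.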

Additional observations from a re-analysis of the deposited data

How the results depend on the processing

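The count of 4 genes called higher was 4 or 5 under all 18 alternatives, and 5 without propionate library 2, when PFKFB3 joined. Over all tested genes, 2343 were higher in the main fit and 1984 without propionate library 2. The count of 0 called lower became 1 with the GC trend removed and 2 with the replicate block as well, where PFKL stood at -0.30 in both. Of 160 refits of single genes among the 10, 156 stayed on the same side of the threshold, and 11, all of PFKL, PFKP, ENO1 or LDHA, had the other sign. The block alone changed no call among the 10. Over the 9 lists the 24 higher calls ranged from 15 to 22 when 1 library was left out. The 4 lower calls ranged from 3 to 7 then, and became 8 with the replicate block, 7 with the GC trend removed and 14 with both. Over all tested genes 17.0% were lower in the main fit, 22.6% with the block, 19.6% with the GC trend removed and 25.4% with both. Higher calls over all tested genes were 17.2% in the main fit, 21.9% with the block and 14.7% with the GC trend removed. With 1 library left out, between 1984 and 2086 genes in all were higher and between 1865 and 1999 lower. The isozyme shifts of -0.81 (HK2 to HK1), -1.48 (PFKFB3 to PFKFB4) and 0.82 (ENO2 to ENO1) passed in diffSpliceDGE, whereas the exact test could not pass with 3 libraries a group. The cause of the other changes was not tested. When 1 library is left out, a group of 2 remains and the spread is pooled over both groups. At these depths PFKFB4 rested on 161 control reads, the fewest of the 10.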
